A study of Mus musculus with 30 samples.

Results

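Translation initiation factor genes were taken as all 52 protein-coding mouse genes (RefSeq, GRCm38.p6) whose symbols start with Eif and a digit, leaving out the Eif2ak kinases, among 21887 protein-coding genes on the nuclear chromosomes. They were described in 4 chromatin immunoprecipitation (ChIP-seq) peak lists of WT-MA9 cells, mouse leukaemia cells that stably express the fusion MLL-AF9 from the vector pMSCV-MLL-AF9-GFP. The lists were Menin in MI-503, UTX in MI-503, Menin in DMSO and UTX in DMSO, each from 1 library. MI-503 is an inhibitor of the Menin-MLL interaction whose concentration the sources used here do not give, and DMSO is the vehicle. The fusion and the culture with IL6, IL3 and SCF were common to all 4 groups, and cells were collected on day 4 of treatment. Peak lists hold no expression values, so the labelled cell type was not checked against markers. With 1 library per condition no difference between conditions could be tested, and no p-value is given for one. A weaker signal per cell and a signal in fewer cells cannot be told apart in such libraries.

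Initiation factors bring a ribosome to the start codon of an mRNA. eIF2 delivers the initiator tRNA to the small ribosomal subunit, eIF2B recharges eIF2 with GTP, eIF3 is the scaffold of the complex on that subunit, and eIF4F binds the cap of the mRNA and unwinds its leader. Most of these genes are housekeeping genes with CpG-rich promoters. Menin is the adaptor that tethers MLL proteins to chromatin. UTX is a histone H3 lysine 27 demethylase found in MLL3 and MLL4 complexes.

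Promoter sequence is shown first, because the peaks described below lay mostly at annotated starts. The 4 sequences from Eif4e to Eif2b2 come from the 6 genes ranked highest by the mean rank of their UTX MI-503 and Menin DMSO folds, where fold is the deposited ratio of the reads piled up at a summit to the local background. The other members of that 6, Eif1 and Eif2s1, are not shown because their summits lay outside the 300-base promoter window of RefSeq. The last pair, Eif2s3x and Eif2s3y, had a peak in none of the 4 lists. They are copies of the same subunit gene, taken first by alphabet among such genes, and do not stand for the others. Each sequence is the 250 bases before an annotated start, 5′ to 3′ on the gene's strand, from RefSeq on GRCm38.p6. Capitals mark the E-box CACGTG, the CCAAT box (CCAAT or its complement ATTGG), the GC box (GGGCGG or CCGCCC) and the TATA letters TATAAA or TTTATA.
Eif4e, chr3:138527018-138527267, plus strand: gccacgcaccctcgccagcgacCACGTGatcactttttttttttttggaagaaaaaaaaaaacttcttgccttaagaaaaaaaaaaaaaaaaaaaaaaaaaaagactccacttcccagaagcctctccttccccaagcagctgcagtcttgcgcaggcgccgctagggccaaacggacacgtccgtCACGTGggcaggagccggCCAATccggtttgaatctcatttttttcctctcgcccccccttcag
Eif4g1, chr16:20672477-20672726, plus strand: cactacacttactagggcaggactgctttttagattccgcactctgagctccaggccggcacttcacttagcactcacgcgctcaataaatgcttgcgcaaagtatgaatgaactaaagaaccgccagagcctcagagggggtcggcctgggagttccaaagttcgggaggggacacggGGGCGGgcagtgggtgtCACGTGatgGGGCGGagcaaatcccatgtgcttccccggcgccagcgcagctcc
Eif2b1, chr5:124579132-124579381, minus strand: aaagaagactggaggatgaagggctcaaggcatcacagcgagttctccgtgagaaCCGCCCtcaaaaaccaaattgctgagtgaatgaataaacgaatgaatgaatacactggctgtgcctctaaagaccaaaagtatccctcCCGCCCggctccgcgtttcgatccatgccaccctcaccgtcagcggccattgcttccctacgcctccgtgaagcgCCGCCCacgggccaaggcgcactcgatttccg
Eif2b2, chr12:85219231-85219480, plus strand: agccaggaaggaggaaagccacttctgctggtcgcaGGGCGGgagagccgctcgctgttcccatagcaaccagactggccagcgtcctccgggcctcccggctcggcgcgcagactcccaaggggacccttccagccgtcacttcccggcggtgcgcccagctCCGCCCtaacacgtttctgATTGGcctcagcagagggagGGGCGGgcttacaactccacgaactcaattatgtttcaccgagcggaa
Eif2s3x, chrX:94212652-94212901, minus strand: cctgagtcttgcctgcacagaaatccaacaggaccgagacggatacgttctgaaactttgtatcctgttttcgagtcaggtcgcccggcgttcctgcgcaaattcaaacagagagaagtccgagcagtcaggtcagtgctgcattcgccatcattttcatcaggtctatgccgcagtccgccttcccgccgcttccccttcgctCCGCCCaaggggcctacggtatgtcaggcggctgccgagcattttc
Eif2s3y, chrY:1010345-1010594, plus strand: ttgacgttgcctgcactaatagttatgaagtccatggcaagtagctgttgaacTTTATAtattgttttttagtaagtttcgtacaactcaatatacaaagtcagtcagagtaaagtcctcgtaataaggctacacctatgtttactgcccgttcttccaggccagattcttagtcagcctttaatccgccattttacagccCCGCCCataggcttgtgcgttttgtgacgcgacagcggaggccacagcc

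In Eif4e, the gene of the cap-binding protein, E-boxes began 228 and 64 bases upstream of the start and a CCAAT box 46 bases upstream, and the UTX MI-503 and Menin DMSO summits lay 113 and 104 bases upstream, between the E-boxes. In Eif4g1, the gene of the scaffold that joins the cap-binding protein to the helicase, an E-box began 54 bases upstream, between GC boxes at 71 and 45 bases, and the summits lay 11 and 3 bases upstream. Beyond the printed stretch, another GC box began 2 bases upstream and ran past the start. Another E-box began at base 16 of the gene, and both were nearer to the summits. Eif2b1, which encodes the regulatory alpha subunit of eIF2B, held 3 GC boxes and its summits lay 44 and 8 bases downstream of the start. Eif2b2, the beta subunit, held a CCAAT box whose centre was 1 base from the UTX MI-503 summit and 7 bases from the Menin DMSO summit. The X-linked and Y-linked copies of the eIF2 gamma subunit gene each held a GC box, 46 and 49 bases upstream, and neither had a peak. These letters describe the sequence and are not shown to be bound sites.

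A gene was counted as having a peak where a summit lay within 1 kb of its annotated start or end. In MI-503, UTX peaks lay at 39 of the 52 genes (75%), against 36.5% of all protein-coding genes, and in DMSO they lay at 1 gene (1.92%), against 0.777% of all genes. Menin peaks lay at none of the 52 genes in MI-503, where 0.00914% of all genes had one, and at 38 genes (73.1%) in DMSO, where 31.2% of all genes did. The UTX MI-503 and Menin DMSO lists both marked 34 initiation factor genes (65.4%), against 28.4% of all genes. UTX MI-503 alone marked 5 genes (9.62%, against 8.1% of all), Menin DMSO alone marked 4 (7.69%, against 2.85%), and 9 had neither (17.3%, against 60.7%). In each of the 2 long lists the share of initiation factor genes with a peak was above the share of all genes.

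The length of the lists moved with these counts, and so did depth. Reads over each summit were recovered from the deposited fold and p-value. The lists held 8 peaks for Menin in MI-503, 14231 for UTX in MI-503, 11195 for Menin in DMSO and 217 for UTX in DMSO. By the recovered pileups, reads in Menin MI-503 were at least 1.35 times those in Menin DMSO, and reads in UTX DMSO were at least 1.14 times those in UTX MI-503. Depth and list length thus ran opposite ways for both antibodies. Whether treatment or the quality of a single library set the length of a list cannot be told apart. When every list longer than 217 peaks was shortened to its 217 peaks of highest −log10 q (the deposited significance of a summit over its background), UTX MI-503 marked 4 initiation factor genes (Eif4e, Eif1, Eif2s1 and Eif5), against 1 in UTX DMSO. Menin DMSO marked 3 (Eif4e1b, Eif4ebp2 and Eif1), and Eif1 was shared. The shares of all genes were then 1.03% for UTX MI-503, 0.978% for Menin DMSO, 0.0959% for both and 0.777% for UTX DMSO.

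**Figure D1:**
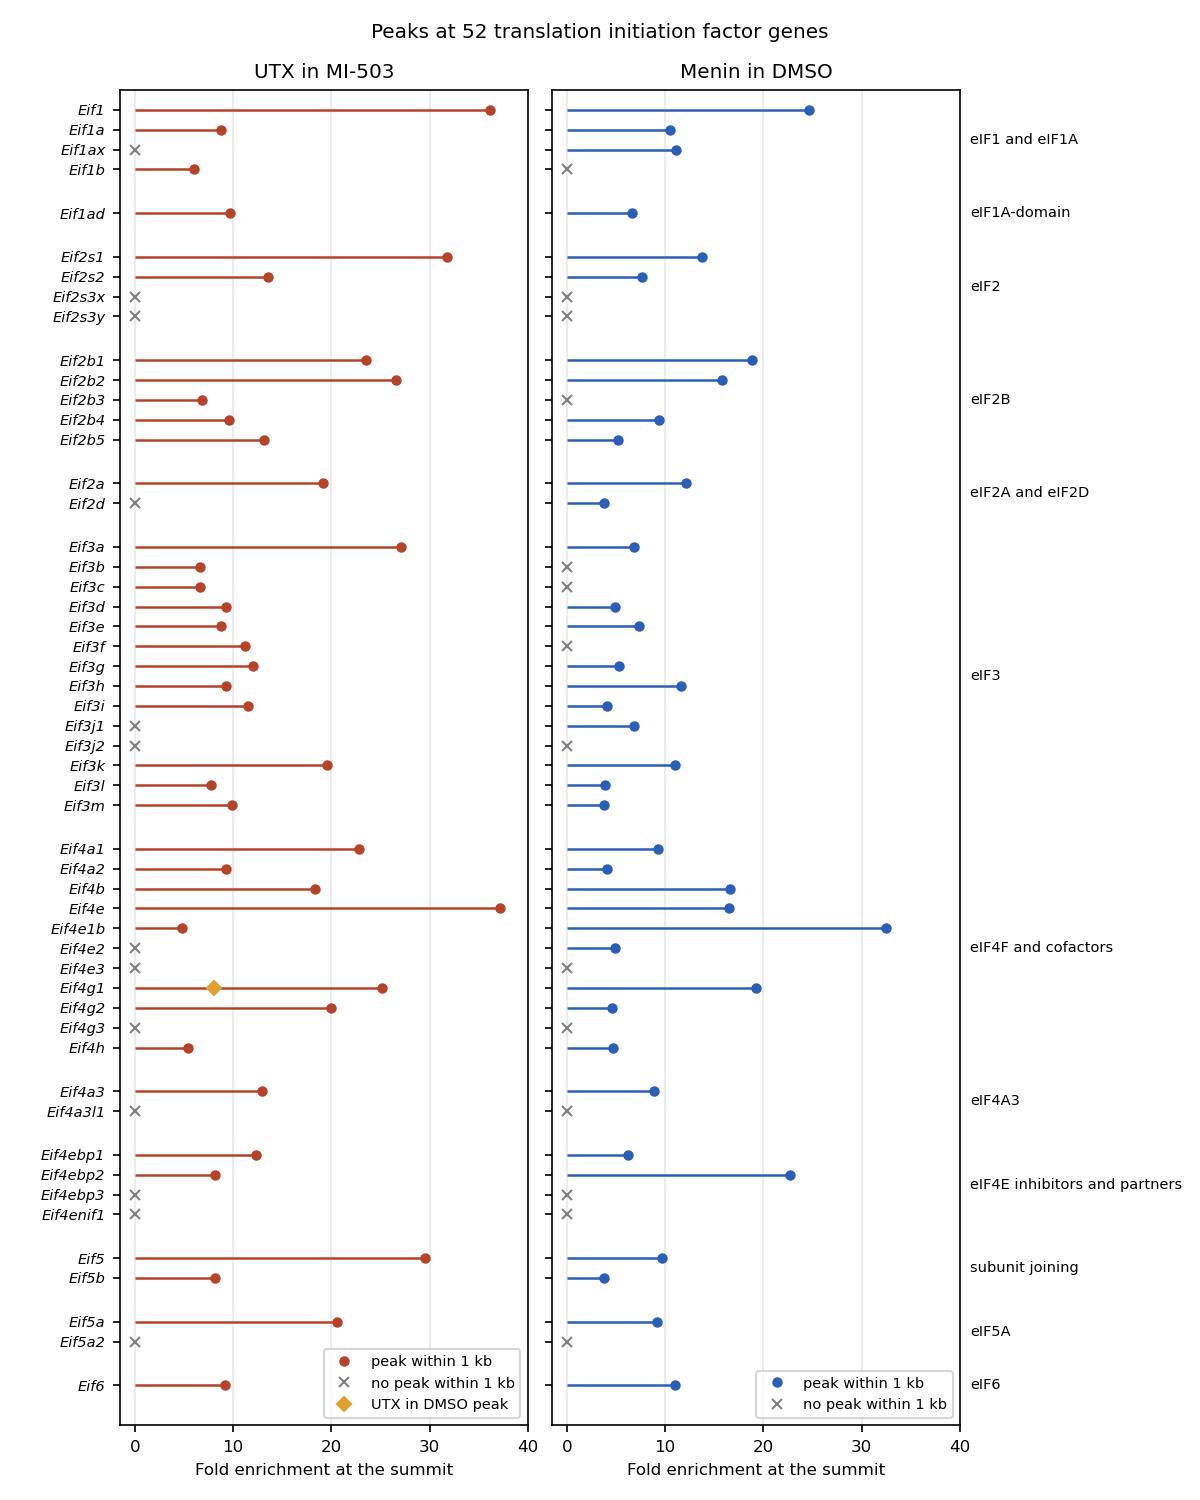
Fold enrichment over the local background at the strongest peak of each of the 52 initiation factor genes, grouped by factor, with 1 point per gene in a UTX MI-503 and a Menin DMSO panel. Points run between 4.85-fold and 37.2-fold for UTX MI-503 and between 3.72-fold and 32.5-fold for Menin DMSO, a cross marks a gene without a peak, and the diamond is the UTX DMSO peak of Eif4g1 at 8.04-fold.

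Eif4g1 was the one initiation factor gene with a peak in 3 lists. Its UTX peak was 25.1-fold over the local background in MI-503 (chromosome 16, 20672522 to 20672858), against 8.04-fold in DMSO (20672663 to 20672789). The −log10 q values were 58.7 and 6.96. The recovered reads over the summit numbered 47 in MI-503 (95% Poisson interval 34.5 to 62.5) and 16 in DMSO (9.15 to 26.0), although the DMSO library was the deeper. These intervals did not overlap, but they cover counting error only. The UTX DMSO peak was 127 bp wide, ranked 145 of the 217 in its list and lay wholly within the MI-503 peak. The Menin DMSO peak of the gene (20672579 to 20672854) was 19.2-fold, with 77 reads over the summit (60.8 to 96.2), and no Menin MI-503 peak lay there.

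Among the genes of eIF1 and eIF1A, which keep the scanning ribosome from starting at wrong codons, Eif1 ranked second of all members in both long lists. Its UTX MI-503 peak was 36.1-fold (chromosome 11, 100320293 to 100320632; −log10 q 93.0), and its Menin DMSO peak 24.7-fold (100320281 to 100320724; −log10 q 108). Both summits lay within the gene, 517 and 539 bp from its start, and each list held another peak 105 or 106 bp from that start, of 31.8-fold for UTX MI-503 and 13.6-fold for Menin DMSO. Eif1 thus had paired peaks at the same places in both lists. The eIF1A gene Eif1a was at 8.76-fold for UTX MI-503 and 10.5-fold for Menin DMSO. Its X-linked paralog Eif1ax had a Menin DMSO peak alone, of 11.1-fold (chromosome X, 159371824 to 159372079; −log10 q 26.7), 230 bp from the start. Eif1b, a close paralog of Eif1, had a UTX MI-503 peak alone, of 6.02-fold (chromosome 9, 120493058 to 120493237; −log10 q 5.73), with 10 reads over the summit, 489 bp from the gene boundary. Eif1ad, named for its eIF1A domain, was at 9.70-fold for UTX MI-503 and 6.66-fold for Menin DMSO.

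The eIF2 genes divided by subunit. Eif2s1, whose alpha subunit is the phosphorylation target of the eIF2 kinases, was at 31.7-fold for UTX MI-503 (chromosome 12, 78861479 to 78861924; −log10 q 78.2) and 13.8-fold for Menin DMSO (78861472 to 78862239; −log10 q 54.8). The summits lay 425 and 430 bp from Eif2s1 and 361 and 366 bp from Atp6v1d, a proton pump subunit gene, so they were nearer to the neighbour. Eif2s2, the beta subunit, was at 13.6-fold for UTX MI-503 and 7.64-fold for Menin DMSO. The gamma subunit genes Eif2s3x and Eif2s3y had no peak in any list, nor within 3 kb. The gamma subunit was thus the one of the 3 without a marked gene. Its genes are copies on the X and Y chromosomes, and the sources used here do not give how reads from copies were placed. Whether the division by subunit means anything was not tested.

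All 5 subunit genes of eIF2B, the exchange factor that reloads eIF2 with GTP, had a peak for UTX MI-503, and 4 for Menin DMSO. The shares were 75% and 73.1% of all 52 members and 36.5% and 31.2% of all genes, in that order. Whether 5 genes differ from those shares was not tested. Eif2b2 was at 26.6-fold for UTX MI-503 (chromosome 12, 85219117 to 85219728; −log10 q 61.9; summit 65 bp from the start) and 15.8-fold for Menin DMSO (85219249 to 85219682; −log10 q 60.4; 73 bp). Eif2b1 was at 23.5-fold for UTX MI-503 (chromosome 5, 124578909 to 124579340; −log10 q 52.1) and 18.8-fold for Menin DMSO (124578907 to 124579354; −log10 q 76.4). Both genes were among the 10 of highest fold in each long list. The catalytic epsilon subunit gene, Eif2b5, was at 13.1-fold for UTX MI-503 and 5.16-fold for Menin DMSO, and Eif2b4 was at 9.55-fold and 9.41-fold. Eif2b3 was the exception, with a 6.81-fold UTX MI-503 peak alone (chromosome 4, 117019311 to 117019758; −log10 q 7.83; 13 reads), 95 bp from the gene boundary. Of the other factors that can deliver initiator tRNA, Eif2a was at 19.2-fold for UTX MI-503 (chromosome 3, 58525531 to 58526031; −log10 q 39.0) and 12.1-fold for Menin DMSO (58525563 to 58526043; −log10 q 46.9). The summits lay 60 and 68 bp from Eif2a, and 3 and 5 bp from the start or end of Serp1. Eif2d, which acts in reinitiation, had a 3.74-fold Menin DMSO peak alone (chromosome 1, 131153175 to 131153353; −log10 q 4.12; 18 reads), near the lowest fold of any member in that list.

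The 14 eIF3 genes had lower median folds than the marked initiation factor genes together. UTX MI-503 peaks lay at 12 of them with a median of 9.62-fold, and Menin DMSO peaks at 10 with a median of 6.03-fold. The medians over all marked initiation factor genes were 11.5-fold and 9.02-fold. Of all 52 members 75% and 73.1% were marked, and of all genes 36.5% and 31.2%. Eif3a, the largest core subunit, stood above the others for UTX MI-503 at 27.1-fold (chromosome 19, 60790113 to 60790933; −log10 q 64.3; 65 bp from the start) and was at 6.78-fold for Menin DMSO (60790592 to 60790921; −log10 q 23.7; 13 bp). Eif3k was at 19.6-fold for UTX MI-503 and 11.0-fold for Menin DMSO. In Eif3h the order of the folds was turned, with 9.27-fold for UTX MI-503 and 11.6-fold for Menin DMSO (chromosome 15, 51865345 to 51865698; −log10 q 41.8). The other 6 genes marked in both lists were Eif3d, Eif3e, Eif3g, Eif3i, Eif3l and Eif3m, at 7.74-fold to 12.0-fold for UTX MI-503 and 3.73-fold to 7.29-fold for Menin DMSO.

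Core subunit genes of eIF3 were also among those marked for UTX MI-503 alone. Eif3b had a 6.68-fold peak (chromosome 5, 140419085 to 140419298; −log10 q 7.63; 13 reads; 113 bp from the gene boundary). Eif3c was at 6.60-fold (chromosome 7, 126565985 to 126566428; −log10 q 7.50; 13 reads; 68 bp). Eif3f was at 11.2-fold (chromosome 7, 108934229 to 108934455; −log10 q 19.8; 24 reads; 125 bp). With Eif1b and Eif2b3, these were the 5 genes of that class, and Eif3f had the highest fold of them. Eif3j1, the loosely bound subunit, had 3 Menin DMSO peaks and none for UTX, the strongest 6.78-fold (chromosome 2, 122028376 to 122028723; −log10 q 11.3; 22 reads; 38 bp). Its copy Eif3j2 on chromosome 18 had no peak. The sources used here do not give how reads from near-identical copies were placed.

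The eIF4F genes and helicase cofactors held the gene of highest fold in each long list. UTX MI-503 peaks lay at 8 of the 11 genes with a median of 19.2-fold, and Menin DMSO peaks at 9 with a median of 9.26-fold. These counts stand beside 75% and 73.1% of all 52 members and 36.5% and 31.2% of all genes. Eif4e had the highest UTX MI-503 fold of all members, 37.2 (chromosome 3, 138526869 to 138527356; −log10 q 96.8; 67 reads), and was at 16.5-fold for Menin DMSO (138526988 to 138527329; −log10 q 58.1; 65 reads). Both summits lay 964 and 973 bp inside the outermost gene boundary, close to the limit of the window, but by a second annotated start. Eif4a1, the helicase, was at 22.8-fold for UTX MI-503 (chromosome 11, 69672323 to 69672757; −log10 q 53.2; 48 bp from the start) and 9.26-fold for Menin DMSO (69672206 to 69672626; −log10 q 28.6; 47 bp). Eif4b, a cofactor that stimulates the helicase, was at 18.4-fold for UTX MI-503 (chromosome 15, 102073527 to 102074280; −log10 q 45.0; 60 bp) and 16.6-fold for Menin DMSO (102073579 to 102074103; −log10 q 63.8; 24 bp). Eif4g2, Eif4a2 and Eif4h were below 5-fold for Menin DMSO. Eif4g2, which encodes an eIF4G-like protein without the cap-binding partner site, was at 20.0-fold and 4.56-fold, in the order UTX MI-503 and Menin DMSO. The second helicase gene Eif4a2 was at 9.30-fold and 4.07-fold in that order, and the cofactor gene Eif4h at 5.45-fold and 4.66-fold.

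The paralogs of Eif4e differed from it and from each other. Eif4e1b, an oocyte form of the cap-binding protein, had the highest Menin DMSO fold of all members, 32.5 (chromosome 13, 54788769 to 54789692; −log10 q 145; 121 reads), and the lowest UTX MI-503 fold, 4.85 (54789073 to 54789253; −log10 q 4.29; 11 reads). Those summits lay 674 and 708 bp from Eif4e1b, for UTX MI-503 and Menin DMSO in that order, but 31 and 65 bp from its neighbour Tspan17, a tetraspanin gene. The highest Menin value in the family thus stood at another gene's boundary. Eif4e2, whose product binds the cap and represses translation, had a Menin DMSO peak alone, of 4.94-fold (chromosome 1, 87213811 to 87214004; −log10 q 6.77; 19 reads; 32 bp). Eif4e3 and Eif4g3 had no peak in the window.

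Eif4ebp2, one of the eIF4E-binding repressors controlled by mTOR, was at 8.15-fold for UTX MI-503 (chromosome 10, 61452697 to 61452989; −log10 q 10.6; 15 reads; 30 bp) and 22.7-fold for Menin DMSO (61452639 to 61453043; −log10 q 115; 114 reads; 44 bp). The strongest peaks of its paralog Eif4ebp1 lay at different places, 12.4-fold for UTX MI-503 at 963 bp and 6.22-fold for Menin DMSO at 19 bp from the gene boundary. At the boundary itself the UTX MI-503 peak was 5.53-fold. Eif4ebp3 and Eif4enif1, the gene of the eIF4E transporter, had no peak. Eif4a3, the helicase of the exon junction complex, was at 13.0-fold for UTX MI-503 and 8.87-fold for Menin DMSO, and its copy Eif4a3l1 had none.

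The late-acting factors followed. Eif5, which makes eIF2 hydrolyse GTP at the start codon, was at 29.5-fold for UTX MI-503 (chromosome 12, 111537530 to 111538246; −log10 q 71.1; 32 bp from the start) and 9.67-fold for Menin DMSO (111537875 to 111538215; −log10 q 35.4; 43 bp). Eif5b, the GTPase of subunit joining, was at 8.21-fold for UTX MI-503 and 3.72-fold for Menin DMSO, and these summits lay nearer to Txndc9 (174 and 24 bp) than to Eif5b (890 and 740 bp). Eif5a, the hypusine-bearing factor that also serves elongation, was at 20.6-fold for UTX MI-503 (chromosome 11, 69921105 to 69921820; −log10 q 53.6) and 9.17-fold for Menin DMSO (69921225 to 69921933; −log10 q 40.8). The summits lay 72 and 271 bp upstream of the nearest of the 6 annotated starts of Eif5a. Its paralog Eif5a2 had no peak. Eif6, which keeps the large ribosomal subunit from joining early, was at 9.14-fold for UTX MI-503 and 11.0-fold for Menin DMSO, at opposite ends of the gene. A second UTX MI-503 peak of 8.76-fold (chromosome 2, 155819128 to 155819587) overlapped the Menin DMSO peak (155819053 to 155819490). The summits of these overlapping peaks lay nearer to a neighbour, Mmp24 or BC029722 (44 and 67 bp), than to Eif6 (561 and 538 bp). The 9 genes with neither peak were thus Eif2s3x, Eif2s3y, Eif3j2, Eif4a3l1, Eif4e3, Eif4ebp3, Eif4enif1, Eif4g3 and Eif5a2.

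Folds and reads over the summit gave opposite orders between the long lists. Over the 34 genes with both peaks, the UTX MI-503 fold was the higher in 29 (85.3%, against 79.1% of all genes with both), with a median ratio of 1.78 (range 0.149 to 4.39), against 1.51 over all genes with both. The exceptions were Eif1a, Eif3h, Eif4e1b, Eif4ebp2 and Eif6. The reads over the summit were higher for UTX MI-503 in 4 of the 34 and for Menin DMSO in 29, with 1 equal. The local background entered the fold, and its median at the marked members was 0.937 reads for UTX MI-503 and 3.86 for Menin DMSO. The median pileup there was 23 reads (10 to 67) for UTX MI-503 and 41 (16 to 121) for Menin DMSO. Folds from the 2 antibodies therefore do not rank them against each other. Across the 34 genes the log2 folds of the lists had a Pearson r of 0.361 and the folds a Spearman rho of 0.357, against 0.413 and 0.428 over all genes with both. At 31 of the 34 genes the strongest peaks of the lists overlapped, and the libraries have separate inputs.

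**Figure D2:**
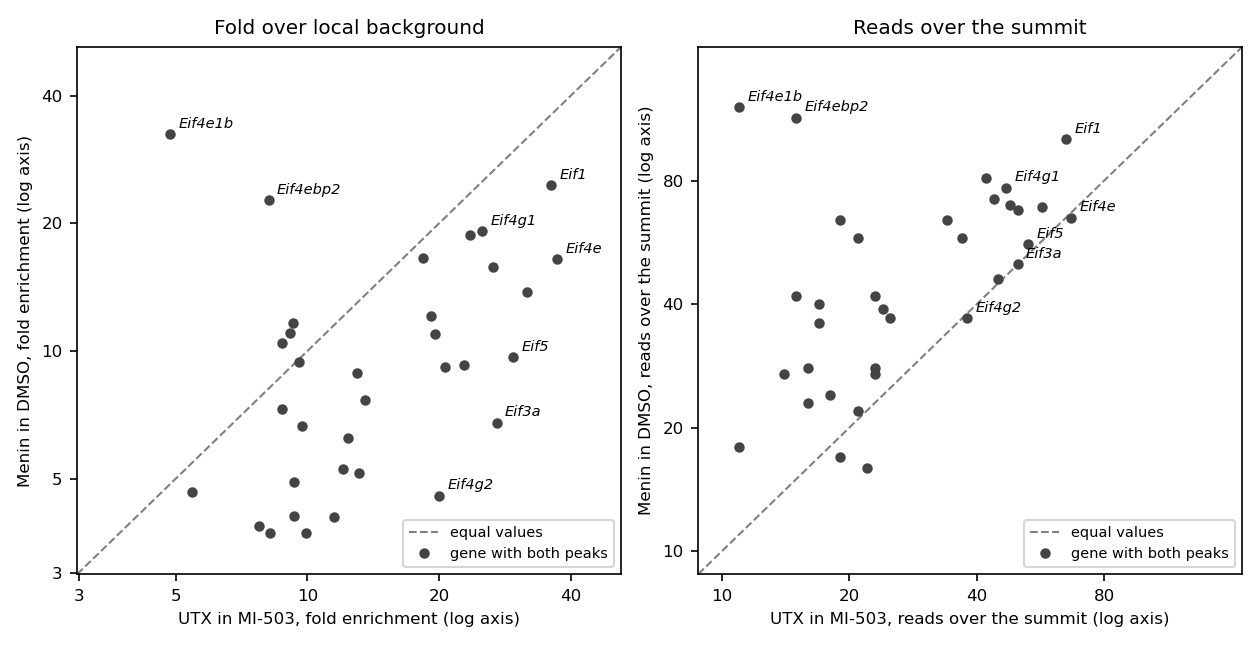
Left, fold enrichment (log axes) for UTX MI-503 and Menin DMSO at the 34 initiation factor genes with both peaks; right, recovered reads over the summit at the same genes, with the line of equal values. Most points lie on the UTX side for fold (29 of 34) and on the Menin side for reads (29 of 34).

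The peaks of both antibodies mostly stood at the same places. In 31 of the 34 genes (91.2%, against 94.6% of all genes with both) the strongest peaks overlapped by at least 1 bp, and the median distance between summits was 44.5 bp (39 bp over all genes). Eif3i, Eif6 and Eif4ebp1 were the exceptions. In Eif3i and Eif6 the strongest peaks lay at opposite ends of the gene, and in Eif4ebp1 each list had peaks at the same pair of places but ranked them differently. Counting any peak of a gene, Eif6 and Eif4ebp1 overlapped too, which made 33 of 34. The folds compared above for these 3 genes come from different places. Where the promoter table gives strand and start, UTX MI-503 summits lay within 200 bp of an annotated start in 26 of 30 genes (86.7%, against 72.9% of all genes), and Menin DMSO summits in 25 of 30 (83.3%, against 77.9%). All 30 in each list lay nearer to the start side of the gene than to its end, against 95.2% and 95.7% of all genes. Eif3i and Eif6 have no strand in the promoter table and are not among the 30. With strongest peaks at opposite ends, each of them had 1 at the end side. The UTX MI-503 exceptions beyond 200 bp were Eif1, Eif1b, Eif2s1 and Eif5b, and those for Menin DMSO were Eif1, Eif1ax, Eif2s1, Eif5a and Eif5b.

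**Figure D3:**
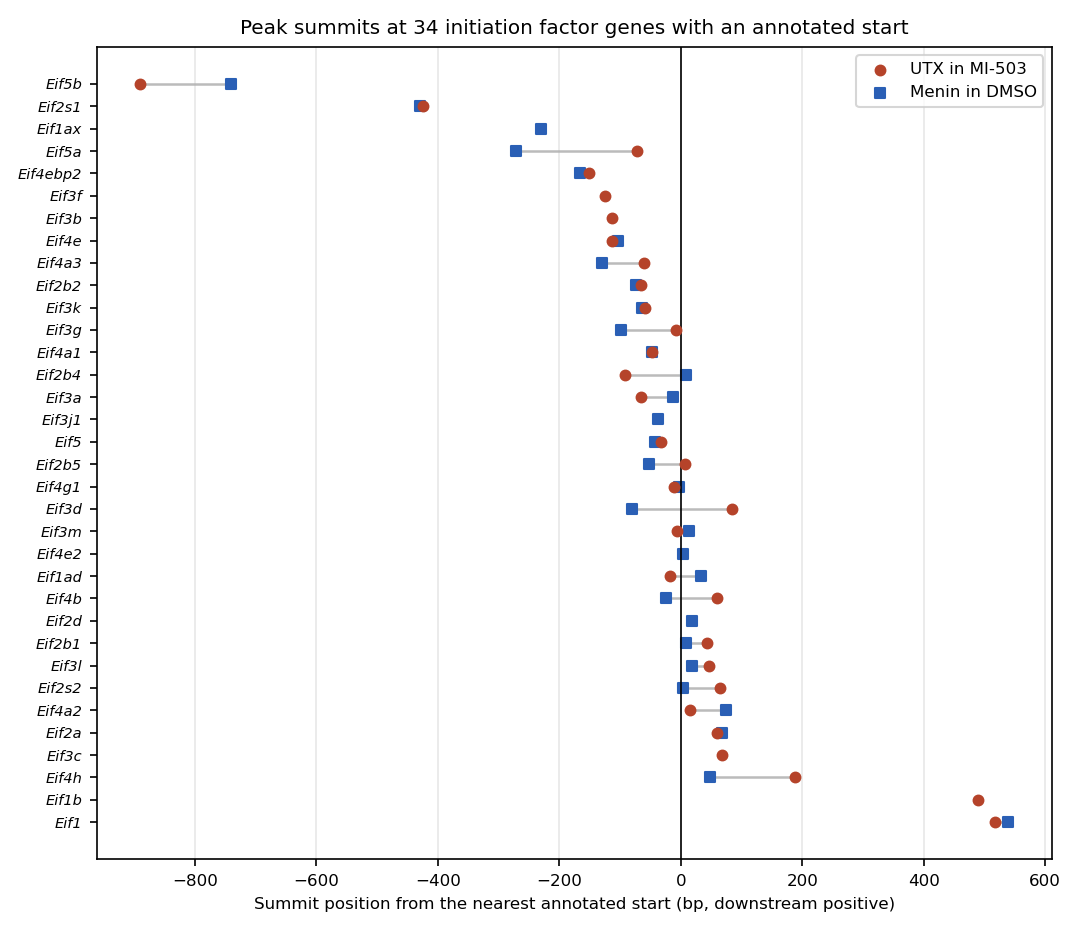
Summit position relative to the nearest annotated start, in bp along the direction of transcription (negative upstream), for the 34 marked initiation factor genes with a start in the RefSeq promoter table. Circles are UTX MI-503, squares Menin DMSO, and a line joins both summits of a gene. Points gather at the start, with 26 of 30 UTX MI-503 and 25 of 30 Menin DMSO summits within 200 bp.

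Some of these peaks also lay by the start or end of a neighbouring gene. The strongest peak was within 1 kb of another protein-coding gene at 11 of the 39 genes for UTX MI-503 (28.2%, against 30.5% of all genes marked) and 11 of the 38 for Menin DMSO (28.9%, against 31.3%). It was nearer to that neighbour in 6 of each (15.4% and 15.8%, against 14.8% and 15.2% of all genes marked). The neighbours were Tmed7 (Eif1a), Banf1 (Eif1ad), Serp1 (Eif2a), Gtf2h3 (Eif2b1), Snx17 (Eif2b4), Atp6v1d (Eif2s1), Tmem234 (Eif3i), Map4k1 (Eif3k), Senp3 (Eif4a1), Tspan17 (Eif4e1b), Txndc9 (Eif5b), and Mmp24 and BC029722 (Eif6). Peak lists do not assign such a peak to either gene. At least a pair of peaks stood at 10 members for UTX MI-503 (25.6% of those marked, against 20.6% of all genes marked) and at 7 for Menin DMSO (18.4%, against 9.60%).

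Over all genes, peaks were least frequent where the promoter held fewest CpG. The promoter table covers 40 of the 52 genes, and the 300-base windows at their outermost listed starts held a median of 24 CpG and 61.7% G and C, against 13 and 56.3% over 17492 genes. Within windows of 20 to 29 CpG, UTX MI-503 marked 80% of 15 initiation factor genes, against 68% of all genes, and Menin DMSO marked 86.7%, against 59.8%. With 30 CpG or more the shares were 71.4% and 78.6% of 14 initiation factor genes, against 60.3% and 54.3% of all genes, for UTX MI-503 and Menin DMSO in that order. With 10 to 19 CpG they were 77.8% and 55.6% of 9, against 49.8% and 41.4%. Among these 9, Eif4e and Eif5a (11 CpG each) were placed by a window at the outermost start, which does not hold their summits. In each of these 3 bins the gap to all genes was smaller than without binning, for both lists, and the part of CpG content in the counts was not tested further. The 2 members with fewer than 10 CpG went the other way, since 1 of them was marked in each list (50%), against 8.12% of all such genes for UTX MI-503 and 6.35% for Menin DMSO. Among the members themselves, the 26 covered genes with both peaks had a median of 24.5 CpG. The 6 covered members counted with neither peak had a median of 24 CpG and ranged between 3 and 37. The highest of these, Eif4g3, had peaks at this window, which lies over 1 kb inside the gene boundary and so outside the peak rule.

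**Figure D4:**
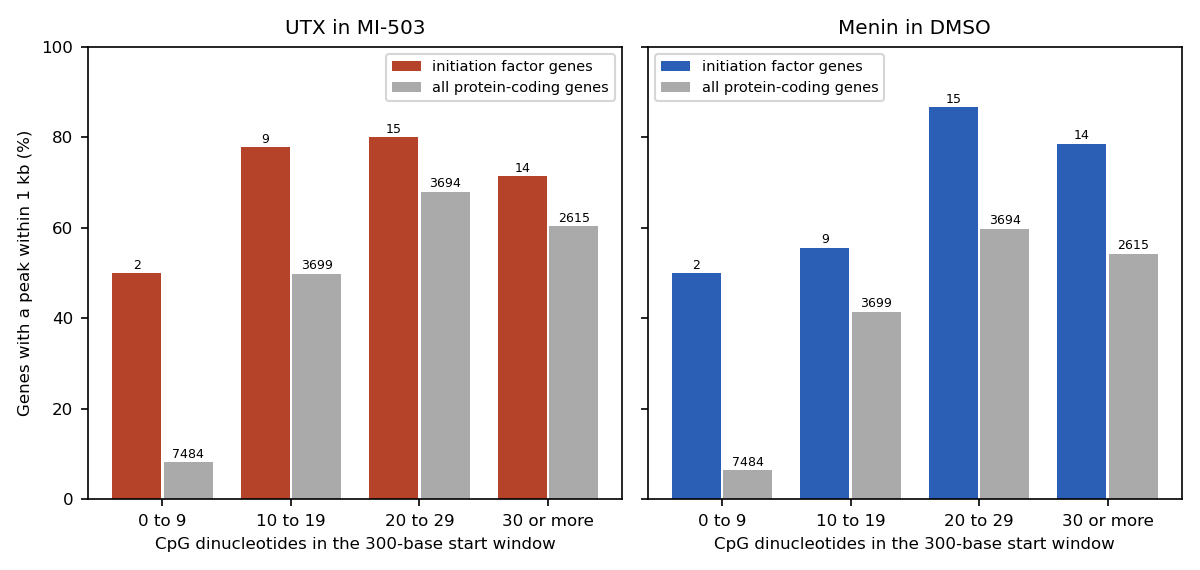
Percent of genes with a peak by the number of CpG in the 300-base promoter window, for initiation factor genes (coloured bars) and all protein-coding genes (grey), with the number of genes above each bar and a panel each for UTX MI-503 and Menin DMSO. Initiation factor genes stand above all genes in each bin, though the lowest bin holds 2 of them, and the share of all genes is lowest in the windows of fewest CpG.

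Short sequence motifs were counted on both strands of the same windows, 1 per gene. For Eif4e and Eif5a the window counted lies at the outermost start, away from the summits, and held none of the 6 motifs. For Eif4e this differs from the sequence printed above. GC boxes (GGGCGG) were in 30 of 40 member windows (75%), against 46.3% of all windows and 73.1% of the windows of all genes with both peaks. The ETS core CCGGAAG was in 13 (32.5%), against 11.9% and 24.5%, and the E-box CACGTG in 8 (20%), against 7.91% and 12.7%. CCAAT, the box bound by NF-Y, was in 12 (30%), against 39.2% and 45%. TATAAA was in 4 (10%), against 13.3% and 5.39%, and the CRE letters TGACGTCA were in none, against 2.33% and 4.91%. CCAAT and the CRE were thus the motifs whose share in member windows was below that in both sets. Motifs were counted separately, so letters shared between neighbouring motifs could count for both. Of the 6 covered members with neither peak, 3 held CCAAT (50%) and 1 held an E-box (16.7%). Of the 26 with both peaks, 8 held CCAAT (30.8%) and 5 an E-box (19.2%).

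Other genes of translation were marked at like shares. UTX MI-503 peaks lay at 39 of 52 initiation factor genes (75%), 76 of 92 cytosolic ribosomal protein genes (82.6%) and 33 of 38 aminoacyl-tRNA synthetase genes (86.8%). Menin DMSO peaks lay at 73.1%, 76.1% and 76.3% of them, and UTX DMSO peaks at 1, 1 and 2 genes, in the same order. Over all genes the shares were 36.5% for UTX MI-503, 31.2% for Menin DMSO and 0.777% for UTX DMSO. Median folds for UTX MI-503 were 11.5, 11.7 and 10.3, and for Menin DMSO 9.02, 7.18 and 6.81. The initiation factor share was thus the lowest of the 3 families in both long lists, while their Menin DMSO median fold was the highest. These differences were not tested.

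Regulators and partners of initiation were counted together with recycling, elongation and release factors, from a list of 36 genes. UTX MI-503 peaks lay at 28 (77.8%, against 36.5% of all genes) and Menin DMSO peaks at 23 (63.9%, against 31.2%). All 23 had both peaks (63.9% of the 36, against 28.4% of all genes). Over all genes, 6210 of the 6834 with a Menin DMSO peak also had a UTX MI-503 peak. The 8 genes with neither were Impact, Rptor, Mknk1, Larp1, Pdcd4, Paip1, Mcts1 and Eef1b2, where 60.7% of all genes had neither. In the arm of the eIF2 kinases and phosphatase, UTX MI-503 marked 8 of 9 genes and Menin DMSO marked 6. Eif2ak3, the kinase PERK of the endoplasmic reticulum, was at 19.2-fold for UTX in MI-503, against 7.86-fold in DMSO, and at 4.79-fold for Menin DMSO. It was the one gene of the 36 with a UTX DMSO peak (2.78%, against 0.777% of all genes). Eif2ak4, the amino acid sensor GCN2, was at 11.4-fold for UTX MI-503 and 25.7-fold for Menin DMSO. Ppp1r15b, a subunit of the eIF2 phosphatase, was at 20.6-fold and 14.8-fold in that order. The mTOR and MNK arm was marked least, with 4 of 8 genes in each of these lists. Mknk2, a kinase of eIF4E, was at 34.5-fold for UTX MI-503 and 10.6-fold for Menin DMSO. The poly(A)-binding protein gene Pabpc1 was at 22.2-fold and 29.5-fold in that order, and Abce1, the ribosome recycling factor, at 27.9-fold and 16.9-fold. Etf1, the release factor, was at 31.5-fold and 12.7-fold. Of the 8 elongation and release genes, UTX MI-503 marked 7 and Menin DMSO marked 6.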

How the data were processed

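ChIP-seq peak lists of 4 libraries of WT-MA9 cells were used, 1 library per condition, and the other 26 of the 30 libraries that the labels describe were not analysed here. Peaks were called with MACS2 on mm10, per the submitters' processing notes. The sources used here do not give the aligner, the read filters or the q threshold. In the names of the deposited peaks, both Menin lists share 1 vehicle input and both UTX lists another. No list pools libraries.

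The deposited fold is the authors' ratio at the summit, in which 1 is added to both the pileup and the local background. The deposited −log10 p-values and −log10 q-values are those of each summit against that background. Where a gene had several peaks, the one of highest −log10 q was described. Lowest folds were 3.50 (Menin MI-503), 1.25 (UTX MI-503), 1.32 (Menin DMSO) and 2.89 (UTX DMSO). Positions are counted from 1.

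Reads over each summit were recovered by solving fold and p-value together. All pileups of UTX MI-503 and Menin DMSO were whole within 0.01, and 296 simulated rows were recovered at 100%. In the short lists the steps were 0.742 reads (Menin MI-503) and 0.8744 (UTX DMSO), which hold where a library is deeper than its input and was scaled down. Absolute depth is unknown. Poisson intervals (95%) are exact and cover counting error only.

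The RefSeq gene table is of GRCm38.p6, the same assembly as mm10, and gives no strand. Strand, starts and sequence come from the RefSeq promoter table, 250 bases before to 50 after a start. The members and lists were chosen with earlier results of these data known. Genes with full values were the 10 of highest fold in each long list, any with a peak in a short list and any with a peak in 1 long list alone; the members near the window's limit and the shared neighbours were chosen after their values were seen. Counts stand beside those over all genes, with no test. Alternatives changed the window, the thresholds, the definition of overlap and the length of the lists. Python 3.11.15, numpy 2.4.6, pandas 2.3.3, scipy 1.17.1 and matplotlib 3.10.9 were used.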

Additional observations from a re-analysis of the deposited data

How the results depend on the processing

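Of the counts of genes for UTX MI-503, for Menin DMSO and for both, and of overlapping peaks, 21 recomputed values stayed within 1.5 times the value reported and 3 moved further. The counts of 0 for Menin MI-503 and 1 for UTX DMSO did not change, which lists of 8 and 217 peaks largely fix. Those 3 came from shortening the long lists to 217 peaks, which left 4 genes for UTX MI-503, 3 for Menin DMSO and 1 (Eif1) for both. Under windows of 500 bp and 3 kb, −log10 q or fold of at least 5, any part of the peak, and annotated starts alone (40 genes), UTX MI-503 marked 31 to 40 genes and Menin DMSO 28 to 39. The shares for UTX MI-503 were 73.1% to 77.5%, against 33.2% to 41.6% of all genes. For Menin DMSO they were 53.8% to 77.5%, against 25% to 35.6% of all genes. Overlap held in 21 of 34 genes when each peak had to share 50% of its length, and in 33 when any peak of the gene counted, an alternative chosen after seeing the data. All 24 counts by factor group stayed within 1.5 times with a 3 kb window, the one alternative tried for groups. That window contains the 1 kb window, so counts could only stay or rise. Groups with every gene marked could not rise, so this says little about stability. No paired analysis was possible because each condition has 1 library. Without replicates, no value here has an error between libraries.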

Other observations

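Several peaks of initiation factor genes lay outside the window of 1 kb. Just inside it stood the Eif4ebp1 peaks at 963 bp (UTX MI-503, 12.4-fold) and 997 bp (Menin DMSO, 4.75-fold). Just outside, within Eif4a1, stood a 20.6-fold UTX MI-503 peak at 1046 bp and a 16.8-fold Menin DMSO peak at 1033 bp, in addition to the peaks at the start of that gene. Eif4a1 therefore carried a strong pair of peaks in its body that the window does not count.

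Eif4g3, an eIF4G scaffold gene counted with neither peak, had peaks of 7.69-fold for UTX MI-503 and 4.44-fold for Menin DMSO, 1455 and 1369 bp inside its outermost boundary, by a start in the promoter table. Eif4e3 had 2 UTX MI-503 peaks deep in the gene, of 4.92-fold and 5.84-fold, and no Menin DMSO peak there. Eif5a had inner peaks of 5.96-fold for UTX MI-503 and 6.88-fold for Menin DMSO. In all, 6 UTX MI-503 and 3 Menin DMSO peaks lay more than 1 kb inside 5 of the genes. Of 12 Eif loci not annotated as protein-coding, 1 was marked by UTX MI-503 and 1 by Menin DMSO. The share over all loci not annotated as protein-coding was not counted, so these counts have no comparison.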
